A study of Mus musculus with 10 samples.

Results

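Collagen genes were compared between mouse 3T3-L1 preadipocyte clones that differed in their later capacity to become fat cells. The genes were every probe set annotated to 1 symbol of the form Col, number, a, number, with the brighter probe set kept where a gene had more than 1. This gave 44 genes out of 19937 with a probe set of 1 symbol: 11 fibrillar collagens, 6 basement membrane collagens, 9 FACIT collagens and 18 others. Col21a1, a FACIT collagen, had no such probe set and was not analysed here. All 44 exceeded the intensity filter (above an array's 25th percentile in at least 5 arrays), and each did so in all 10 arrays.

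3T3-L1 cells derive from mouse embryo fibroblasts and store fat after a cocktail of insulin, dexamethasone and IBMX. High lines were single-colony clones that stored much triglyceride after the cocktail, and Low lines were clones that stored little. RNA came from untreated, proliferating cells of 5 High and 5 Low lines kept in DMEM with serum below confluence, so it predates differentiation. The High clones, numbered here as replicates 1 to 5, carry the names 3F4, 4D2, 4E3, 5C4 and 5D4. The Low clones, numbered likewise, carry the names 1E7, 2D7, 2F1, 4D11 and 4H4. Each line is 1 clone and gave 1 array, so the spread within a class holds clonal and technical variation together, and no treatment or engineered allele separates the classes. Signals are log2 intensities after RMA, which corrects background, aligns the arrays' distributions and summarises the probes of a transcript. A signal can be set against that of another line for the same gene, but not against another gene's probe set.

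Collagens are secreted proteins whose chains wind around each other in helices of glycine-rich repeats. Fibrillar collagens form the banded fibres of connective tissue, and type IV forms the sheet-like network of basement membranes. FACIT collagens sit on the surface of fibrils, while type VI builds beaded filaments around cells and other members span the cell membrane. Fibroblasts and preadipocytes are known as collagen makers. Type VI collagen, with endotrophin cut from its alpha 3 chain, is known from fat tissue fibrosis.

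No collagen gene differed between High and Low lines past the threshold (0 of 44 at a limma adjusted p under 0.05, with 0.00612% of 16339 tested genes past it). The smallest adjusted p of a collagen gene was 0.364. At an unadjusted limma p under 0.05 there were 4 genes with higher signals in High lines, Col23a1, Col16a1, Col18a1 and Col20a1, and 0 with lower ones. That is 9.09% of the collagen genes, against 3.16% of all tested genes in that direction, while 4.79% of all genes lay on the other side. The 95% confidence intervals ran from -0.66 at their lowest bound to 0.67 at their highest, and for 40 of 44 genes the interval lay within a 1.5-fold difference either way. Col12a1, Col18a1, Col28a1 and Col6a1 were the exceptions.

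The differences were small and mostly of 1 sign. Of the 44 genes, 38 had a positive High minus Low difference and 6 a negative one, 86.4% positive against 58% of all tested genes, with a median of 0.10 against 0.021. With arrays centred on their medians the split was 32 positive and 12 negative. As deposited, 34 of the 38 collagen genes at or below the 75th percentile of mean signal were positive (89.5%, against 62.5% of such tested genes). Above that percentile 4 of 6 were positive (66.7%, against 44.5%). The median was 0.13 for the other collagens, 0.10 for FACIT, 0.071 for basement membrane and 0.064 for fibrillar collagens, so the types lay close together. No test was made of these medians, because genes of 1 array share that array.

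**Figure D1:**
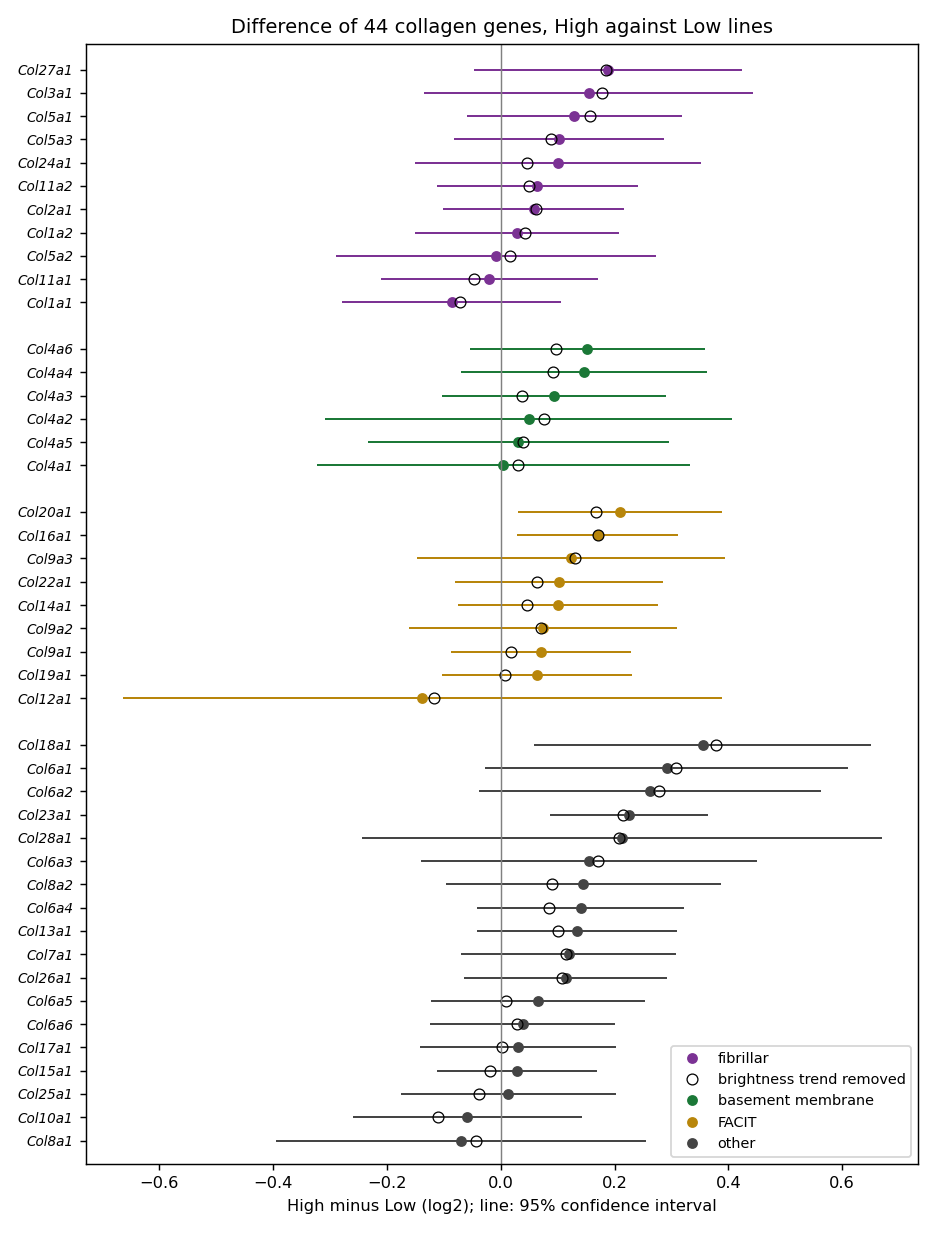
High minus Low difference (log2, horizontal axis) of each of the 44 collagen genes, grouped by type, with its 95% confidence interval from limma as a line and the value after removal of each array's brightness trend as an open circle. Most points lie right of 0 in each type, and the intervals of 4 genes, Col23a1, Col18a1, Col16a1 and Col20a1, stay above 0.

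High replicate 4 stood apart in these genes. It had the highest signal of the 10 lines in 26 of 44 collagen genes (59.1%), against 28.9% of all tested genes. High replicate 1 had it in another 9 (20.5%, against 10.4% of all tested genes). Of the 38 collagen genes at or below the 75th percentile of mean signal, High replicate 4 was highest in 25. Among all tested genes in that range it was highest in 4508 of 12254. Above that percentile it was highest in 1 of 6 collagen genes and in 222 of 4085 tested genes. Without High replicate 4, 32 of 44 differences were positive (72.7%, against 52.1% of all tested genes) and the median was 0.034. Without Low replicate 1 the count was 32 too, with a median of 0.084. High replicate 4 also had the most negative correlation between a gene's brightness and the line's deviation from the gene's mean, r = -0.375 across 16339 genes, which are not independent of one another. With each array's trend against brightness removed, 37 of 44 differences were positive (84.1%, against 51.3% of all tested genes) and the median was 0.067. High replicate 4 was then still highest in 23 of 44 genes (52.3%, against 15.6% of all tested genes). Array weights fitted over all genes gave that array 0.376, the lowest, and the others 0.88 to 1.33. With these weights the median was 0.064 for all collagens and 0.035 for fibrillar collagens.

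Line by line, the collagens varied as much within the classes as between them. The median deviation of the 44 genes from their means was 0.13, 0.025, -0.073, 0.24 and -0.051 in High replicates 1 to 5. It was -0.14, -0.021, 0.040, -0.021 and -0.13 in Low replicates 1 to 5. High replicates 1 and 4 stood above every Low line and Low replicates 1 and 5 below every High line, while the remaining lines overlapped. Low replicate 5 was lowest of the 10 lines in 15 genes (34.1%, against 11.5% of all tested genes) and Low replicate 1 in 14 (31.8%, against 10.8%). High replicate 4 had the highest median deviation in fibrillar (0.20), basement membrane (0.23), FACIT (0.31) and other collagens (0.24). All tested genes had a median deviation of 0.042 in that line.

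**Figure D2:**
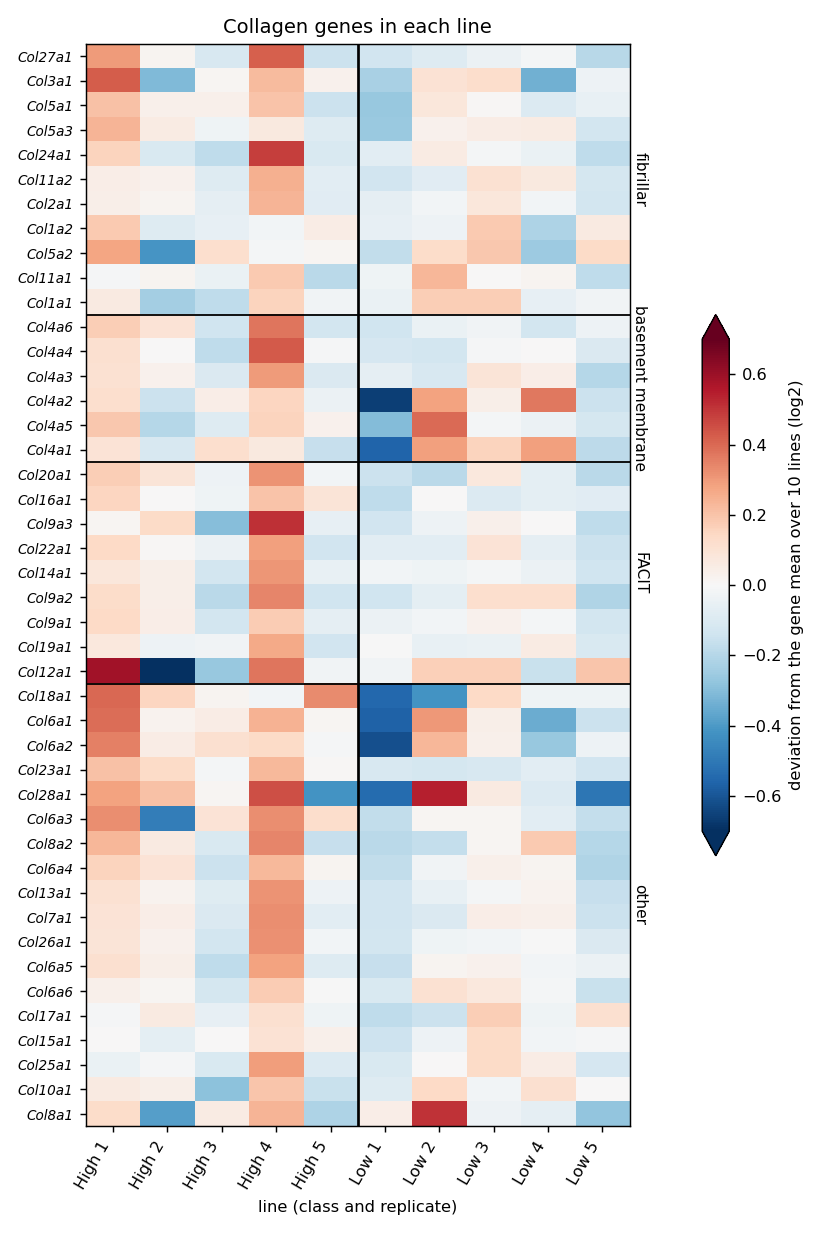
Deviation of each collagen gene (rows, grouped by type) from its mean over the 10 lines, in log2 units, with High lines in the left 5 columns and Low lines in the right 5. The column of High replicate 4 is warm for most genes, and Low replicate 1 is cold for Col4a1, Col4a2, Col6a1, Col6a2, Col18a1 and Col28a1; deviations past 0.7 take the end colours.

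**Figure D3:**
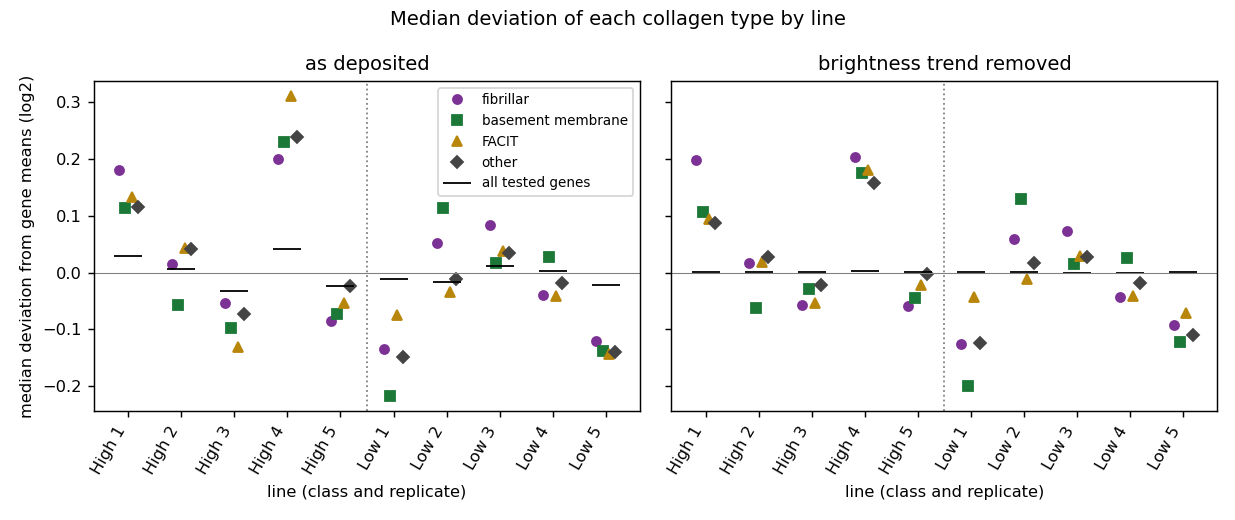
Median deviation from the gene means (log2, vertical axis) of each collagen type in each line, as deposited on the left and with each array's brightness trend removed on the right, with black dashes for all tested genes. High replicate 4 is highest for each type as deposited at 0.20 to 0.31, and remains above 0.15 for each after removal of the trend.

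The leading digit of the clone name, whose meaning the labels do not give, splits the lines further, and 4 is the one digit that both classes share. With that digit as a block the difference rests on those lines, 2 High and 2 Low. There 25 of 44 collagen differences were positive, with a median of 0.016. By type the median was 0.039 for fibrillar, 0.027 for FACIT and 0.019 for other collagens, and its sign turned for basement membrane collagens, at -0.045. None of the 4 genes named above then had an unadjusted limma p under 0.05, and Col12a1, at -0.66, did. The share of all tested genes under 0.05 was not counted in that fit.

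Col23a1, a collagen that spans the cell membrane, was the 1 collagen gene whose classes did not overlap with High lines above, where 0.526% of all tested genes separated in that direction. With High lines below, 0 collagen genes separated, where 1.04% of all tested genes did. Its signal (Entrez gene 237759, probe set 10375838, chromosome 11) was 8.81, 8.74, 8.59, 8.83 and 8.61 in High replicates 1 to 5. In Low replicates 1 to 5 it was 8.49, 8.48, 8.49, 8.53 and 8.47. The Low lines thus lay within 0.06 of each other, and High replicates 3 and 5 lay just above them. The means were 8.72 ± 0.11 in High and 8.49 ± 0.02 in Low lines (SD, n = 5 each), a 1.17-fold difference of 0.22 (95% confidence interval 0.09 to 0.36; limma unadjusted p = 0.00387, adjusted p = 0.364). With 1 line left out the difference ran from 0.20 to 0.26.

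Col18a1 had the largest difference in size among the 44 genes. It encodes a multiplexin of basement membranes, the parent protein of endostatin. Its signal (Entrez gene 12822, probe set 10370259, chromosome 10) was 9.85, 9.6, 9.47, 9.43 and 9.78 in High replicates 1 to 5, against 8.90, 9.03, 9.59, 9.42 and 9.42 in Low replicates 1 to 5. Low replicates 1 and 2 lay well below all other lines, and Low replicate 3 lay inside the High range. The 1.28-fold difference of 0.36 (95% confidence interval 0.06 to 0.65, limma adjusted p = 0.525) ran from 0.26 without Low replicate 1 to 0.44 without Low replicate 3. Col18a1 and Col15a1 are both multiplexins, and Col15a1 differed by 0.028 (95% confidence interval -0.11 to 0.17).

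Col16a1 and Col20a1 were the FACIT collagens with an unadjusted p under 0.05. Col16a1, a collagen of fibril surfaces and cell adhesion sites, had signals of 8.97, 8.82, 8.79, 9.02 and 8.91 in High replicates 1 to 5, against 8.64, 8.82, 8.72, 8.75 and 8.74 in Low replicates 1 to 5. The classes overlapped through Low replicate 2, and the difference was 0.17 (limma unadjusted p = 0.0206, adjusted p = 0.515). Col20a1 measured 8.24, 8.16, 8.03, 8.38 and 8.05 in High lines, against 7.92, 7.88, 8.14, 8.0 and 7.88 in Low lines, a difference of 0.21 (limma unadjusted p = 0.0251, adjusted p = 0.54). Low replicate 3 lay inside the range of its High lines. Without Low replicate 1 or without High replicate 1, Col23a1 alone of the 44 collagen genes kept a limma unadjusted p under 0.05. Without High replicate 3 there were 7, with Col4a4, Col4a6 and Col6a4 added to the 4 genes. The share of all tested genes under 0.05 was not counted in these fits, so the counts have no background to be read against.

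Col12a1, a FACIT collagen of fibril surfaces in fascia and tendon, varied most between lines. Its signal was 11.63, 10.02, 10.78, 11.42 and 11.02 in High replicates 1 to 5 and 11.02, 11.21, 11.21, 10.89 and 11.24 in Low replicates 1 to 5. The High lines spread over 1.61 log2 units and enclosed all Low lines, with High replicate 2 the lowest and High replicate 1 the highest of the 10. The difference of -0.14 (limma adjusted p = 0.887) became 0.10 without High replicate 2. The remaining FACIT collagens, Col9a1, Col9a2, Col9a3, Col14a1, Col19a1 and Col22a1, differed by 0.064 to 0.12, and in each of them High replicate 4 was the highest line.

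The fibrillar collagens of type I, the main fibre of connective tissue, did not separate the classes. Col1a1, the alpha 1 chain, measured 12.68, 12.38, 12.44, 12.77 and 12.59 in High replicates 1 to 5, against 12.57, 12.79, 12.79, 12.56 and 12.59 in Low replicates 1 to 5. Col1a2, the alpha 2 chain, measured 13.15, 12.88, 12.91, 12.95 and 13.02 in High lines, against 12.91, 12.93, 13.15, 12.75 and 13.03 in Low lines. Both genes overlapped fully. Col1a1 differed by -0.09 (95% confidence interval -0.28 to 0.10) and Col1a2 by 0.028 (95% confidence interval -0.15 to 0.21), with limma adjusted p of 0.82 and 0.931. The sign of Col1a2 turned when arrays were centred on their medians.

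Type III and type V collagens are built into the same fibrils as type I, and type V is known to start their assembly. Col3a1 measured 11.07, 10.34, 10.66, 10.87 and 10.68 in High replicates 1 to 5, against 10.42, 10.75, 10.77, 10.31 and 10.61 in Low replicates 1 to 5. Its difference was 0.15 (95% confidence interval -0.13 to 0.44), 0.25 without High replicate 2, the lowest High line, and 0.068 without High replicate 1, the highest. Col5a1 measured 9.93, 9.76, 9.76, 9.92 and 9.57 in High lines and 9.46, 9.80, 9.73, 9.63 and 9.67 in Low lines, a difference of 0.13 (95% confidence interval -0.06 to 0.32). Col5a2 measured 10.85, 10.16, 10.69, 10.56 and 10.59 in High lines and 10.40, 10.70, 10.76, 10.32 and 10.71 in Low lines, a difference of -0.0087 (95% confidence interval -0.29 to 0.27) whose sign turned with repeated quantile normalization. High replicate 2 was the lowest High line for both Col3a1 and Col5a2. The limma adjusted p was 0.797, 0.761 and 0.989 for Col3a1, Col5a1 and Col5a2. The other fibrillar genes, Col2a1, Col5a3, Col11a1, Col11a2, Col24a1 and Col27a1, differed by -0.02 to 0.19.

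Type IV collagen of basement membranes has its most widespread form built from the chains of Col4a1 and Col4a2. Col4a1 measured 10.50, 10.29, 10.52, 10.47 and 10.24 in High replicates 1 to 5, against 9.84, 10.69, 10.56, 10.69 and 10.22 in Low replicates 1 to 5. Col4a2 measured 10.48, 10.21, 10.41, 10.51 and 10.32 in High lines, against 9.70, 10.64, 10.40, 10.73 and 10.21 in Low lines. For both genes Low replicates 2 and 4 were the highest and Low replicate 1 the lowest of the 10 lines, so the Low lines enclosed the High lines. The differences were 0.0040 (95% confidence interval -0.32 to 0.33) for Col4a1 and 0.049 (95% confidence interval -0.31 to 0.41) for Col4a2, and without Low replicate 1 they were -0.14 and -0.11. Both genes lie on chromosome 8. With the median of the 50 nearest tested genes subtracted, which itself differed by -0.061, they differed by 0.065 and 0.11. Col4a3, Col4a4, Col4a5 and Col4a6, chains of the tissue-restricted forms, differed by 0.093, 0.15, 0.031 and 0.15 (limma adjusted p from 0.734 to 0.951 over the 4).

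Type VI collagen, the beaded filament around fat cells and fibroblasts, held the next largest differences after Col18a1. Col6a1 measured 12.04, 11.67, 11.70, 11.89 and 11.66 in High replicates 1 to 5, against 11.08, 11.95, 11.69, 11.30 and 11.50 in Low replicates 1 to 5. Col6a2 measured 11.92, 11.62, 11.68, 11.70 and 11.56 in High lines, against 10.95, 11.80, 11.60, 11.30 and 11.53 in Low lines. In both genes Low replicate 1 was the lowest line, Low replicate 4 the next, and Low replicate 2 second only to High replicate 1. Col6a1 differed by 0.29 (95% confidence interval -0.03 to 0.61, limma adjusted p = 0.661) and Col6a2 by 0.26 (95% confidence interval -0.04 to 0.56, limma adjusted p = 0.676). Without Low replicate 1 these differences were 0.19 and 0.14, and without Low replicate 2 they were 0.40 and 0.35.

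Col6a3, the source of endotrophin, parted from its partner chains in High replicate 2. It measured 11.98, 11.17, 11.75, 11.98 and 11.78 in High replicates 1 to 5, against 11.48, 11.67, 11.67, 11.58 and 11.49 in Low replicates 1 to 5. High replicate 2 was the lowest of all 10 lines, and the other 4 High lines lay above all Low lines. The difference was 0.15 (95% confidence interval -0.14 to 0.45, limma adjusted p = 0.802), 0.29 without High replicate 2 and 0.092 without High replicate 4. Col6a4, Col6a5 and Col6a6, the later-found chains that can take the place of alpha 3, differed by 0.14, 0.066 and 0.038. Signals of Col6a4 and Col6a5 stayed below the array median in all 10 arrays.

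**Figure D4:**
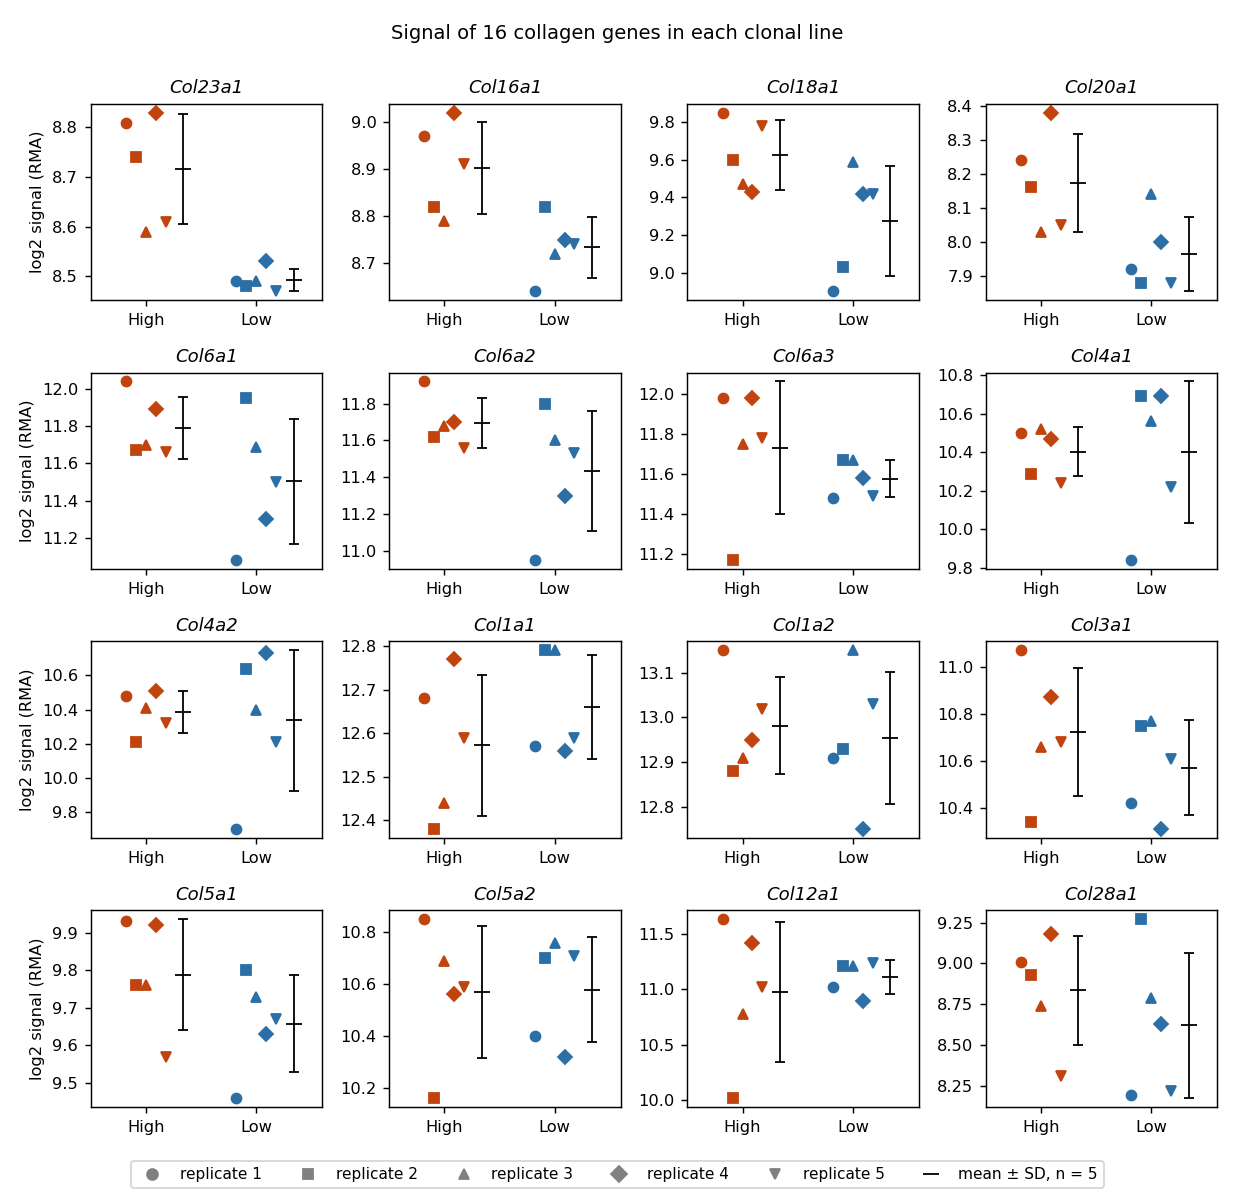
Log2 signal (vertical axis, a scale of its own in each panel) of 16 collagen genes in the 5 High lines (left) and 5 Low lines (right), with a symbol for each replicate and the mean ± SD beside each class. The classes are apart in Col23a1 alone. Low replicate 1 (circle) is lowest in Col16a1, Col18a1, Col6a1, Col6a2, Col4a1, Col4a2, Col5a1 and Col28a1.

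Among the remaining collagens, Col28a1, a relative of type VI known from peripheral nerve, had the next widest spread after Col12a1. It measured 9.01, 8.93, 8.74, 9.18 and 8.31 in High replicates 1 to 5 and 8.19, 9.27, 8.79, 8.63 and 8.22 in Low replicates 1 to 5, with full overlap and a difference of 0.21 (95% confidence interval -0.24 to 0.67). Col8a1, a network-forming collagen, differed by -0.07 and its partner chain Col8a2 by 0.15. Col7a1, the anchoring fibril collagen of skin, differed by 0.12 and Col10a1, the collagen of growth plate cartilage, by -0.06. The membrane-spanning collagens Col13a1, Col17a1 and Col25a1 differed by 0.13, 0.031 and 0.013, and Col26a1 by 0.11. Over the 44 genes, 32 lay above the array median in all 10 arrays and 6 below it in all 10: Col19a1, Col4a3, Col4a6, Col6a4, Col6a5 and Col8a2. That median is taken over all 34760 probe sets, many of them without a gene symbol. Ranked by mean signal among the tested genes, Col23a1 lay at percentile 42.9, Col16a1 at 45.6 and Col20a1 at 36. These genes were thus dimmer than the middle tested gene, while Col18a1 lay at percentile 53.7.

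Genes for chains of the same molecule or fibril were set against each other over the 10 lines, in 10 pairs. The highest Pearson correlations were those of Col6a1 with Col6a2 (Pearson r = 0.973, permutation p = 1e-05, the smallest the 100000 resamples can give, adjusted p = 0.0001; Spearman rho = 0.988, permutation p = 2e-05, adjusted p = 0.0002). Col4a1 and Col4a2 followed (r = 0.963, permutation p = 8e-05, adjusted p = 0.0004; rho = 0.867, permutation p = 0.0024, adjusted p = 0.012), then Col3a1 and Col5a2 (r = 0.845, permutation p = 0.0021, adjusted p = 0.0069; rho = 0.721, permutation p = 0.023, adjusted p = 0.051). Without the 2 lines farthest from the median of the first gene, r was 0.948, 0.883 and 0.771 for these pairs. Taken as deviations from the class means, r was 0.963, 0.966 and 0.907. In each of these pairs the genes are immediate neighbours on a chromosome, 10, 8 and 1, with 0 protein-coding genes between them in RefSeq's order.

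The other pairs had lower Pearson correlations over the same lines, and none of these passed adjustment over the 10 pairs. Col1a1 and Col1a2, which form the same molecule from chromosomes 11 and 6, had r = 0.492 (permutation p = 0.15, adjusted p = 0.24; rho = 0.709, permutation p = 0.025, adjusted p = 0.051), and r = 0.264 without the 2 farthest lines. Col5a1 and Col5a2 had r = 0.392 (permutation p = 0.26, adjusted p = 0.33; rho = 0.406, permutation p = 0.25, adjusted p = 0.28), and r = 0.076 without the 2 farthest lines. For Col6a3 on chromosome 1, r was 0.559 with Col6a1 and 0.474 with Col6a2 (permutation p = 0.094 and 0.17, adjusted p = 0.19 and 0.24; rho = 0.685 and 0.636, permutation p = 0.034 and 0.055, adjusted p = 0.056 and 0.079). Without the 2 farthest lines these r were 0.607 and 0.514. Col1a1 and Col3a1 had r = 0.66 (permutation p = 0.039, adjusted p = 0.097; rho = 0.77, permutation p = 0.013, adjusted p = 0.043), and r = 0.55 without the 2 farthest lines. By rank this pair stood above Col3a1 with Col5a2, and its adjusted p passed 0.05 where that of Col3a1 with Col5a2 did not. Col4a5 and Col4a6, neighbours on the X chromosome, had r = 0.369 (permutation p = 0.29, adjusted p = 0.33; rho = 0.442, permutation p = 0.2, adjusted p = 0.26), with Col4a6 below the array median throughout. For this pair r was 0.555 without the 2 farthest lines and 0.766 with the median of the 50 nearest genes subtracted; subtraction of a shared value can itself raise r. Col8a1 and Col8a2 had r = 0.138 (permutation p = 0.7, adjusted p = 0.7; rho = 0.236, permutation p = 0.51, adjusted p = 0.51), and r = 0.69 without the 2 farthest lines, Low replicate 2 and High replicate 2. Whether one pair's correlation differs from another's was not tested.

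**Figure D5:**
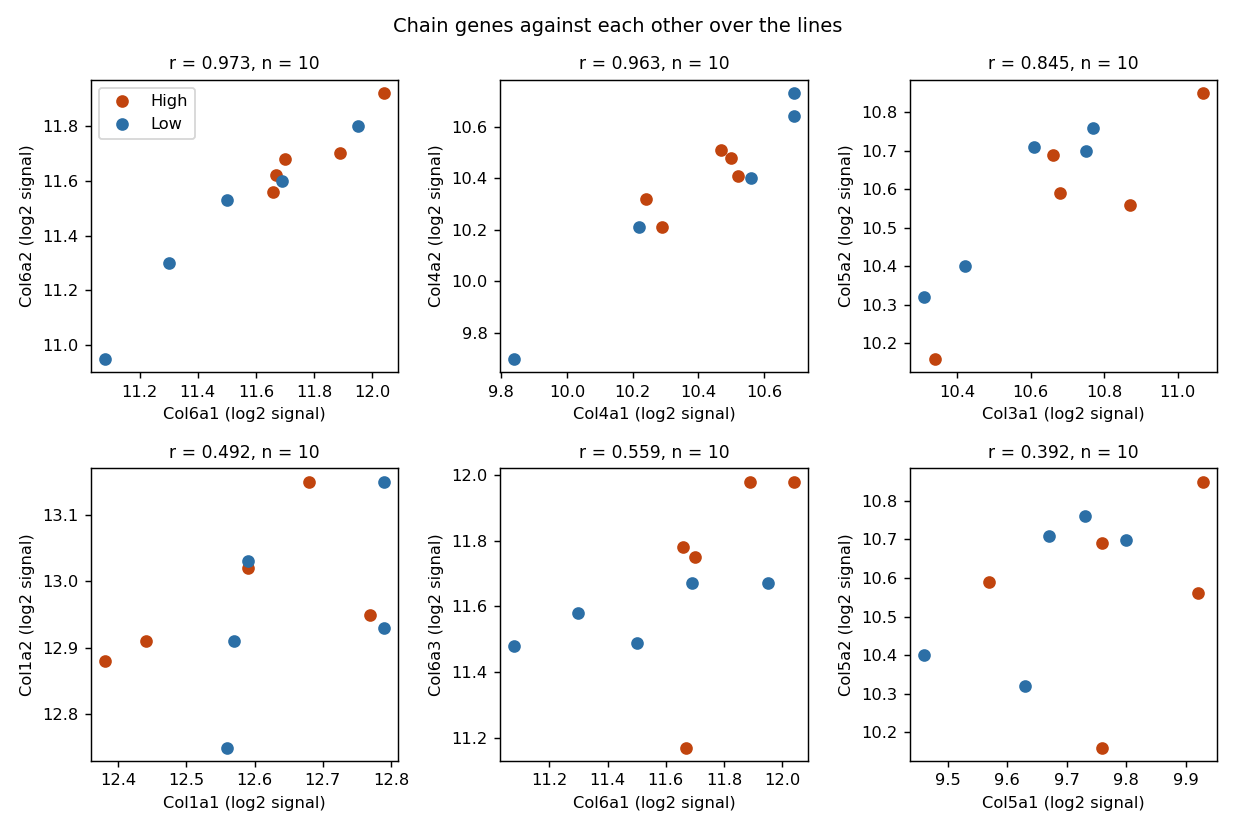
Log2 signal of 1 collagen gene against its partner in each of the 10 lines (High in orange, Low in blue) for 6 of the 10 pairs, each panel with Pearson's r. Points of Col6a1 with Col6a2 (r = 0.973) and of Col4a1 with Col4a2 (r = 0.963) lie close to a line through both classes, and those of Col1a1 with Col1a2 (r = 0.492) scatter.

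The start regions of the most closely correlated pairs are shown because Col4a1 and Col4a2 are known to be transcribed away from each other from a shared promoter, whereas Col6a1 and Col6a2 are read in the same direction. The sequences are RefSeq windows of build GRCm38.p6, from 250 bases before to 50 bases after the gene start, 5′ to 3′ on the gene's strand. Capitals mark letters of a motif found on either strand, so the reverse complement also appears. The motifs searched were the CCAAT box, spelled as its name; the GC box, spelled GGGCGG; and the TATA box, spelled TATAAA. The TATA box spelling was found in none of the windows shown. The Col4a1 window is chr8:11312777-11313076 on the minus strand and the Col4a2 window chr8:11312555-11312854 on the plus strand. The Col6a1 window is chr10:76725995-76726294 and the Col6a2 window chr10:76623355-76623654, both on the minus strand; RefSeq lists a further Col6a2 start whose window is not shown.
Col4a1: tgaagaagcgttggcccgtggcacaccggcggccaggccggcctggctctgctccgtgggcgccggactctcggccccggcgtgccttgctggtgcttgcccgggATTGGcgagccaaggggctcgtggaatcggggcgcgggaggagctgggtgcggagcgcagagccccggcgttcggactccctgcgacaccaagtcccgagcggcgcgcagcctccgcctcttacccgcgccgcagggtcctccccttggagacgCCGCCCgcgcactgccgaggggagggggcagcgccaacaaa
Col4a2: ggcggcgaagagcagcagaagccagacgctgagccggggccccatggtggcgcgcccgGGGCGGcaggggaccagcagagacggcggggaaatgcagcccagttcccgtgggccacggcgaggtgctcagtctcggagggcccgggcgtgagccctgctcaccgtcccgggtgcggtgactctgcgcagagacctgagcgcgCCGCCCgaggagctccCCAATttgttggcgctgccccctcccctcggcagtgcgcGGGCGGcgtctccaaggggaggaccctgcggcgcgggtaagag
Col6a1: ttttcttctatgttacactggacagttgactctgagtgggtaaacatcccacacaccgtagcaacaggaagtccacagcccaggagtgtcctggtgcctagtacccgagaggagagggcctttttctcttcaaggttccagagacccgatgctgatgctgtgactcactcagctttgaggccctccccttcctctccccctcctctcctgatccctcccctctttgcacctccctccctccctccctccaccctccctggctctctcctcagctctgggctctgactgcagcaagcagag
Col6a2: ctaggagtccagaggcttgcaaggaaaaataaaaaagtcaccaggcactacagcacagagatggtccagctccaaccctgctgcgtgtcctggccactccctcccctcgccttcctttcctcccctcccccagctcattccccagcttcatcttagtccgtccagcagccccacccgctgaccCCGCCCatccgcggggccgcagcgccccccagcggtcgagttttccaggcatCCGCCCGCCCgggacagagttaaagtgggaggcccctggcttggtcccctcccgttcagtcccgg
The Col4a1 and Col4a2 windows share 78 bases, read on opposite strands, and 1 of the GC box matches lies in that shared stretch. G and C made up 74% of the Col4a1 window, 73.7% of the Col4a2 window, 57.3% of the Col6a1 window and 64.3% of the Col6a2 window. The CCAAT box was found in both type IV windows and in neither of the type VI windows shown, and the GC box at 1 position for Col4a1, 3 for Col4a2, 0 for Col6a1 and 3 for Col6a2, of which the last pair overlap. Of all 32851 such windows, 37.4% held the CCAAT box, 35.7% the GC box and 13.6% the TATA box. Of the 38 windows of 35 collagen genes, 34.2% held the CCAAT box, 60.5% the GC box and 13.2% the TATA box. A match describes letters and shows no binding.

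Genes that process collagen had small median differences between the classes, while some single genes differed more. Of all tested genes 0.00612% passed the adjusted threshold and 58% had a positive difference. At an unadjusted limma p under 0.05, 3.16% of all tested genes were higher and 4.79% lower in High lines. Of 22 tested genes for collagen synthesis and secretion 0 passed the adjusted threshold, 12 had positive and 10 negative differences, and the median was 0.016. With an unadjusted limma p under 0.05 were P3h4 (0.19), which serves lysine hydroxylation of collagen, the coat protein gene Sec24d (-0.23), which serves export of large cargo, and Tmem38b (-0.36), an ion channel of the endoplasmic reticulum. Of 11 tested genes for maturation and cross-linking 0 passed, 8 were positive and the median was 0.043, and Loxl3, a lysyl oxidase relative, differed by 0.17 (limma unadjusted p = 0.0347, adjusted p = 0.585).

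Collagen receptors and degrading enzymes had no gene with an unadjusted limma p under 0.05. Of 9 tested receptor and uptake genes 6 were positive, with a median of 0.079. Of 9 tested degradation genes 6 were positive, with a median of 0.027. Among 20 tested partners of collagen in the matrix 0 passed and 13 were positive, with a median of 0.061. Thbs2 (0.48), Fbln2 (0.30), Lamb1 (-0.41) and Dpt (1.59), which encodes dermatopontin, a regulator of fibril assembly, had an unadjusted limma p under 0.05, with limma adjusted p from 0.277 to 0.379. That is 3 of 20 higher and 1 lower, where 3.16% of all tested genes were higher and 4.79% lower. The share of all tested genes with a positive difference was 58%. For Dpt, High replicate 5, at 7.89, lay within the Low range of 7.81 to 8.56, and the other High lines lay between 9.70 and 10.70.

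Marker genes were read as a check on the cell type, which their signals alone did not settle. Dlk1, a preadipocyte marker, averaged 13.81 in High and 13.85 in Low lines. The mesenchymal filament gene Vim averaged 14.08 in High and 14.11 in Low lines. Cd34, listed with Dlk1, averaged 6.997 in High and 6.935 in Low lines, below every array's median. Acta2, a contractile myofibroblast gene, averaged 13.86 in High and 13.95 in Low lines. Signals of different probe sets cannot be set against each other, so whether the lines resemble preadipocytes more than myofibroblasts was not tested. The 10 preadipocyte and fibroblast markers had a mean signal of 11.37 to 11.55 in High and 11.20 to 11.36 in Low lines, with 8 positive differences and 0 past the adjusted threshold. In this mean the lowest High line, at 11.369, lay narrowly above the highest Low line, at 11.358, a gap that was not tested. Pparg (0.62), Pdgfra (0.33) and Thy1 (0.34) of this list had an unadjusted limma p under 0.05 and were higher in High lines. Dlk1 (-0.039) and Vim (-0.0275) had the negative differences. At an unadjusted limma p under 0.05, 3.16% of all tested genes were higher and 4.79% lower in High lines, beside which the marker genes named here stand. The contractile myofibroblast genes had 7 negative differences of 9 (Tagln, Tpm1 and Actn1 with an unadjusted limma p under 0.05), with a mean signal of 10.94 to 11.17 in High and 11.01 to 11.35 in Low lines, and cell cycle genes one of 12.31 to 12.59 in High and 12.29 to 12.63 in Low lines. The cartilage and bone list, whose cells make several of the dim collagens, had a mean signal of 7.35 to 7.77 in High and 7.42 to 7.54 in Low lines, with 2 of its 7 measured genes, Hapln1 and Ibsp, below the intensity filter. Its members were not alike. Sox9 averaged 12.39 in High and 12.48 in Low lines, and Acan 7.08 in High and 7.01 in Low lines. The mean signal was 6.58 to 6.75 in High and 6.54 to 6.67 in Low lines for endothelial markers, with 4 of 4 tested differences positive. It was 7.39 to 7.68 in High and 7.36 to 7.47 in Low lines for epithelial markers (6 of 6 positive), 7.12 to 7.35 in High and 7.05 to 7.14 in Low lines for leukocyte markers (2 of 3 tested positive), and 7.79 to 8.27 in High and 7.83 to 7.89 in Low lines for mature adipocyte genes (5 of 5 tested positive). Of all tested genes 58% were positive, and 62.5% of those at or below the 75th percentile of mean signal. The median difference was 0.035 for endothelial, 0.069 for epithelial, 0.14 for leukocyte and 0.095 for mature adipocyte genes. With each array's brightness trend removed it was -0.019, 0.026, 0.14 and 0.051 in that order. Of these lists, the fatty acid carrier gene Fabp4 differed by 1.22 (limma unadjusted p = 0.00181, adjusted p = 0.298), averaging 9.82 in High and 8.60 in Low lines. For Fabp4, High replicate 5, at 8.63, lay within the Low range of 8.13 to 9.19, and the other High lines lay between 9.89 and 10.45. The tight junction gene Cldn4 differed by 0.18, the macrophage receptor gene Csf1r by -0.16 and the replication gene Mcm5 by -0.17 (limma unadjusted p = 0.0381, 0.0313 and 0.043). The part of these lists in the collagen values was not tested, and in bulk RNA a different mix of cells and a different level per cell cannot be told apart.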

How the data were processed

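RNA of 10 clonal lines was hybridised to Affymetrix arrays that cover whole transcripts. Values were deposited as log2 intensities per probe set; RMA is named, with neither version nor settings, per the submitters' processing notes, and any array batch is not given in the sources used here. RMA gives arrays like distributions and thereby takes out a shift common to most genes. Array medians ran from 7.74 to 7.84, and the number of arrays limits the precision.

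Of 34760 probe sets, 21640 had 1 gene symbol, 1321 several and 11799 none here. The brightest probe set per gene over all arrays gave 19937 genes, of which 16339 passed the filter. The classes were tested against each other by limma 3.58.1 (lmFit, eBayes; R 4.3.3), two-sided, with Benjamini-Hochberg adjustment over all 16339 genes; differences are High minus Low. The fit was run on simulated data with known changes. The simulated noise was drawn independently for each gene and array, so a trend shared within an array was not covered. Correlations used 100000 permutations and adjustment over 10 pairs. Python 3.11.15, pandas 2.3.3, numpy 2.4.6 and matplotlib 3.10.9 were used. Loess removed each array's trend against mean brightness.

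Members, types, pairs and lists were chosen with earlier results of these data known. Genes with values in every line were a fixed panel of 10, those with an unadjusted p under 0.05 (up to 6 each way), those whose classes did not overlap and the 4 of largest spread. From each pathway list, up to 4 genes with an unadjusted p under 0.05 were named. Marker genes were named as checks on the cell type.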

Additional observations from a re-analysis of the deposited data

Results flagged for a closer look

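Of 88 sets of 5 lines (44 collagen genes in each class), 3 held 1 line far from the rest; chance alone marks about 4.4. Col6a3 measured 11.17 in High replicate 2, against 11.75 to 11.98 in the other High lines. Col25a1 measured 8.11 in High replicate 4, against 7.71 to 7.81 in the other High lines. Col14a1 measured 7.56 in Low replicate 5, against 7.66 to 7.69 in the other Low lines.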

How the results depend on the processing

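Under 19 alternatives (filters, probe sets, normalization, variance models, weights, the leading digit of clone names as a block, and each line left out) 0 collagen genes passed the adjusted threshold; the smallest limma adjusted p was 0.247, for Col23a1 without High replicate 5. Over all genes 1 passed, 2 with arrays centred, 3 with array weights, 0 with the digit as a block, and 1 to 19 with 1 line left out. Of the 4 collagen genes with an unadjusted p under 0.05, 0 remained with the digit as a block, where 1 was lower. With 1 line left out the count was 1 to 7. The matching shares of all tested genes were not counted in these fits. With the digit as a block the median difference was 0.019 for the other collagens and turned sign for basement membrane collagens (-0.045). It was 0.064 for all and 0.035 for fibrillar collagens with array weights, and 0.033 for fibrillar and 0.039 for basement membrane collagens with arrays centred. With 1 line left out the medians ran from 0.034 to 0.13 for all, 0.0093 to 0.099 for fibrillar, 0.024 to 0.13 for basement membrane, 0.033 to 0.13 for FACIT and 0.062 to 0.16 for other collagens, each lowest without High replicate 4. The highest values came without Low replicate 3 for fibrillar and without Low replicate 4 for basement membrane collagens. Signs turned for Col1a2 (-0.0034 with arrays centred, -0.0055 with 50 neighbours subtracted), Col5a2 (0.014 with repeated quantile normalization, 0.016 with the brightness trend removed), Col4a1 (-0.028 with arrays centred, -0.055 with the digit as a block), Col4a2 (-0.16) and Col6a3 (-0.075), both with the digit as a block. With 1 line left out, ranges crossed 0 for Col1a2 (-0.0215 to 0.077), Col5a2 (-0.078 to 0.094), Col4a1 (-0.14 to 0.077), Col4a2 (-0.11 to 0.15) and Col12a1 (-0.30 to 0.10). The causes were not tested. Removal of the brightness trend and of neighbouring genes from the correlations, and counts of positive differences, were added after the data were seen; no correlation changed sign, while r of Col4a5 with Col4a6 ran up to 0.766, of Col8a1 with Col8a2 from 0.097 to 0.69 and of Col5a1 with Col5a2 down to 0.076. No paired analysis was possible because the labels give lines no shared replicate numbers.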
